A study of Mus musculus with 2 samples.

Results

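The accessible sites described here lie at the ends of genes. They are stretches of open chromatin whose centre is within 1 kb of the outermost 3' end of a protein-coding gene and more than 2 kb from every annotated transcription start site (TSS). They were chosen by position from peaks found in both libraries on chromosomes 1 to 19, with peaks that overlapped by at least 1 bp merged. The rule kept 1236 sites out of 78595 shared peaks on these chromosomes. A total of 47264 shared peaks lay more than 2 kb from every TSS, so 46028 such peaks were left as the comparison set, called the other distal peaks.

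The data come from DNase-seq of cerebral cortex, left side, taken at an age of 2 months from 2 females of B6CASTF1/J. Each animal gave 1 library, named replicate 1 or replicate 2 after its label. B6CASTF1/J is the first-generation hybrid of the strains C57BL/6J and CAST/EiJ, and no treatment or genetic change is given for either animal. The libraries carry separate replicate numbers but the same donor entry, and the replicate numbers were followed here. There is 1 group and therefore no comparison between groups, and no test was run; values with ± are the mean and SD over the libraries (n = 2).

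The 3' end of a gene is where its transcript is cut and given a poly(A) tail, and where RNA polymerase II slows and leaves the DNA. DNA next to it can also hold enhancers, boundaries between neighbouring genes, or start sites of other transcripts. Such regulatory DNA is bound by proteins in place of nucleosomes, which makes it sensitive to DNase I, and a bound protein can leave a short protected stretch called a footprint. CTCF, a zinc finger protein that stops the loop-forming cohesin complex, binds a long directional motif and leaves a clear footprint in most tissues.

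The sequences that recur at the strongest of the 3' end sites are shown first. The 10 strongest sites with a match to the CTCF consensus held 12 matches, printed here as 30 bases of the mouse reference (mm10, GRCm38.p6) read along the motif, with the match in capitals. A deposited footprint lay over each of the 12 matches in both libraries.
Dand5, chr8:84815722-84815751, minus strand: cgcttttagCCACTAGGTGGCaccgcgtcc
Copz2, chr11:96862090-96862119, minus strand: cccgtagtaCCTCCAGGTGGCgctctagga
Gdf15, chr8:70629887-70629916, minus strand: gggtagccgCCGGCAGGGGGCgccgaagcg
Gdf15, chr8:70629931-70629960, plus strand: agctgcgtgCCGCCAGAGGGCagcatagcc
Skap2, chr6:51858059-51858088, minus strand: cctaagtggCCAGCAGATGGCagcagcttg
Ckb, chr12:111668521-111668550, plus strand: tgagcctgaCCAGCAGGTGGCagcacaaga
Thbs4, chr13:92751886-92751915, plus strand: cccaggcctCCTGTAGGGGGCgctgtcagc
Srxn1, chr2:152112098-152112127, plus strand: cttccttcaCCAGTAGGTGGCgctgctctc
Ripor1, chr8:105622557-105622586, plus strand: gagctgtcgCCACCAGGGGGCagcagaact
Ror2, chr13:53109641-53109670, plus strand: ctttggactCCAGCAGATGGCagcatcgag
Ror2, chr13:53109743-53109772, plus strand: catcctccgCCAGCAGGGGGCtcacggagc
Cavin1, chr11:100957420-100957449, minus strand: attagggttCCAGCAGGGGGCagcagcgag
Gdf15 and Ror2 had a pair of matches each. At Gdf15 they lay on opposite strands, and at Ror2 on the same strand.

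Matches to other motifs also had footprints, at sites picked whether or not they held a CTCF match as well. The strongest sites with an AP-1 match (TGANTCA with C or G at the N) that had a footprint over the match in both libraries were at Rhbg, Btd and Zbtb7b, and Btd carried a second match nearby with a footprint in replicate 1 alone. The strongest site with a footprinted match to the NEUROD motif (CAGATGG) that did not overlap a CTCF match was at Rap1gap. Matches are in capitals.
Rhbg, chr3:88242713-88242742, plus strand: ttgtgctcaaaTGAGTCAgctcaacgcgcg
Btd, chr14:31669319-31669348, plus strand: ccagcccgggtTGACTCAtcgcttgcaaag
Btd, chr14:31669346-31669375, plus strand: aaggctcgggaTGAGTCAagtcttgaggaa
Zbtb7b, chr3:89378556-89378585, plus strand: cgggggcggcgTGAGTCAggggcagcaagc
Rap1gap, chr4:137730310-137730339, minus strand: gcttctctgccCAGATGGtgatcctctggt

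Whole sites outside untranslated regions (UTRs) are printed next. The sites beyond the 3' ends of Fam120a and Ivd are printed on the gene's strand with each CpG in capitals, and they hold 29 and 19 of them. The site beyond the 3' end of Copz2 is printed with its CTCF match in capitals, which reads on the strand opposite to the gene. It held 17 CpG, left in small letters here, so it was also rich in CpG. The whole sites with a CTCF match at Ckb, Srxn1 and Ripor1, not printed, held 3, 4 and 3 CpG.
Fam120a, chr13:48878641-48878900, minus strand: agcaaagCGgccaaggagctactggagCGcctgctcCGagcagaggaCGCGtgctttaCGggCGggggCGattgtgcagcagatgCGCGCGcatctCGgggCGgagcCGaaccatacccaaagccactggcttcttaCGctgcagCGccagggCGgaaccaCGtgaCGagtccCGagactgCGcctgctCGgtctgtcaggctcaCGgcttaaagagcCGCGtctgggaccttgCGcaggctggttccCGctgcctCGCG
Ivd, chr2:118883461-118883660, plus strand: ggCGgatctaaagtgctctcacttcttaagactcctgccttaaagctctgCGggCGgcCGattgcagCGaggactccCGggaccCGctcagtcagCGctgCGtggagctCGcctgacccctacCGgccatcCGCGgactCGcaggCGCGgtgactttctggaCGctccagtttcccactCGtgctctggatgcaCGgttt
Copz2, chr11:96861961-96862220, plus strand: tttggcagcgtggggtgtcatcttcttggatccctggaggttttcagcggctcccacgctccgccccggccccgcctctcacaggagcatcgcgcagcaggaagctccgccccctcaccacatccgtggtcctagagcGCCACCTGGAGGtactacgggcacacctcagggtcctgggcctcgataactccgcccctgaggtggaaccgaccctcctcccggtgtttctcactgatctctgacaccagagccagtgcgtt

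Peaks were denser near 3' ends than in the remaining TSS-distant sequence. Within 1 kb of a 3' end there were 78.0 peaks per Mb of eligible sequence in replicate 1 and 65.1 in replicate 2, or 71.5 ± 9.11. In the rest of the eligible genome there were 37.1 and 33.9, or 35.5 ± 2.28. Shared peaks alone numbered 42.6 per Mb near 3' ends and 21.99 per Mb elsewhere. Both libraries therefore had more peaks near 3' ends, and the ranges did not overlap.

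The difference varied with the kind of sequence around the 3' end. In exonic sequence the density was 81.4 ± 10.9 per Mb near 3' ends and 79.8 ± 9.19 in other exons, a difference smaller than the spread between the libraries. In introns it was 59.2 ± 7.54 near 3' ends and 41.7 ± 2.98 elsewhere. In intergenic sequence it was 65.4 ± 7.82 near 3' ends and 28.7 ± 1.42 elsewhere, the widest gap of these kinds of sequence.

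The increase was broad and did not centre on the 3' end. In 500 bp bins it was 82.1 ± 11.5 peaks per Mb between 1000 and 500 bp inside the gene, 69.4 ± 8.15 in the last 500 bp of the gene, and 66.6 ± 7.29 in the first 500 bp beyond it. Between 2000 and 2500 bp beyond the end it was 71.4 ± 5.29, and between 9500 and 10000 bp inside the gene it was 44.8 ± 3.604. The bins on either side of the 3' end were lower than the bin between 1000 and 500 bp inside the gene in both libraries. Density around the limit of 1 kb was level, with 124 shared peaks at 900 to 1000 bp and 123 at 1000 to 1100 bp, and their median signals were 0.837 ± 0.022 and 0.851 ± 0.005.

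**Figure D1:**
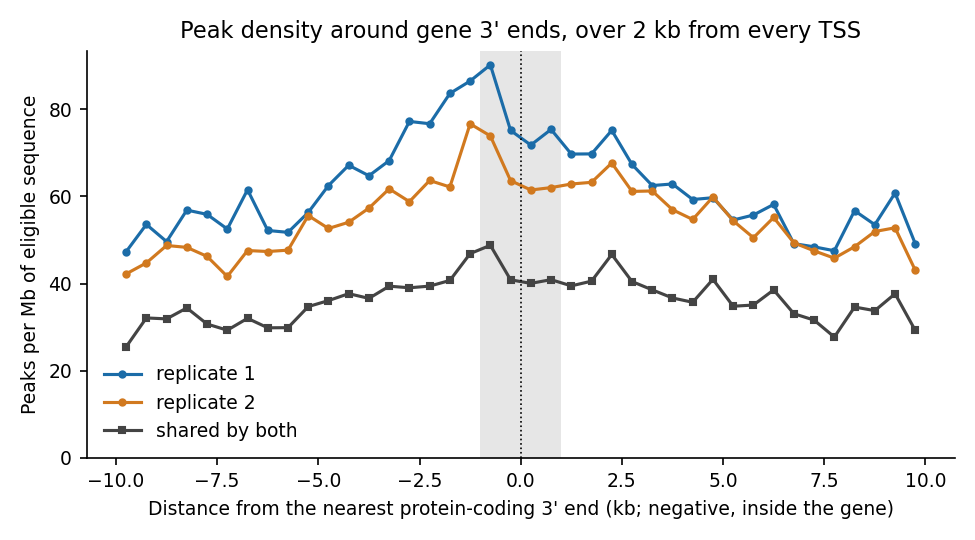
Peaks per Mb of sequence more than 2 kb from every TSS, in 500 bp bins of distance from the nearest protein-coding 3' end (negative values lie inside the gene), for each library and for peaks shared by both; the grey band marks the 1 kb on either side. Both libraries are highest between 1500 and 500 bp inside the gene and lower in the last 500 bp of the gene (75.2 and 63.6), from where they stay nearly level to 2500 bp beyond the end, with 71.5 ± 9.11 peaks per Mb in the grey band against 35.5 ± 2.28 in the rest of the genome.

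Nearly equal numbers of sites lay inside and beyond the gene. Of the 1236 sites, 600 (48.5%) were downstream of the 3' end, 392 (31.7%) in the 3' UTR, 146 (11.8%) in a coding exon, 85 (6.88%) in an intron and 13 (1.05%) in another exon. Of the 600 downstream sites, 485 were in no annotated gene and 115 in a neighbouring gene. The median distance from the 3' end was 510 bp, and 243 sites (19.7%) were centred within 250 bp of it. Only 109 sites (8.82%) spanned the 3' end itself.

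Ends with and without a common poly(A) signal had sites about equally often. Of 12673 usable 3' ends with AATAAA or ATTAAA in the last 40 bases, 6.79% (95% Wilson interval 6.37 to 7.25%) had a site within 1 kb. Of 5127 usable ends without either, 6.36% (5.72 to 7.06%) had one, and the intervals overlap. These intervals cover counting error only, here and throughout.

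The shares differed more by the neighbouring gene. Where the next protein-coding gene within 5 kb ran towards the 3' end, so that the genes converged, 332 of 3767 usable ends (8.81%) had a site. In tandem, with the next gene running the same way, 81 of 1485 (5.45%) had one, and with no gene within 5 kb 774 of 12548 (6.17%) did. A site between converging ends counts for both genes, and 83 sites had more than 1 coding 3' end within 1 kb. The share varied little with gene length. It was 6.18% of ends for genes up to 10 kb and 7.08% from 10 to 30 kb. From 30 to 100 kb it was 7.09% and above 100 kb 6.02%. All these shares are per end and not per Mb of eligible sequence. The start of a next gene in tandem, or the own start of a short gene, can remove part of the window. How far this lowered the shares of such ends was not tested.

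The 3' end sites had a higher signal than the other distal peaks in both libraries. Signal is the height of the cut density in a peak, scaled by the authors to read depth. The median was 0.828 in replicate 1 and 0.884 in replicate 2 (0.856 ± 0.039), against 0.639 and 0.672 (0.656 ± 0.023) for the other distal peaks. With the window around the 3' end widened to 2 kb the median over the libraries was 0.851, nearly the same. Signal ran from 0.039 to 35.0 in replicate 1 and from 0.058 to 40.1 in replicate 2. Ranked among all distal shared peaks, 458 of the sites (37.1%) fell in the highest quartile by signal and 182 (14.7%) in the lowest.

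The sites were not wider than the other distal peaks. The median width was 220 bp against 232 bp for the other distal peaks. At least 1 footprint was found in 92.6% ± 0.92 of the sites and in 89.9% ± 0.29 of the other distal peaks, and the smaller of the peak lists deposited for each library, whose threshold is not given in the sources used here, held in both libraries 726 of the sites (58.7%), against 52% of all distal shared peaks. Footprints were found in both libraries at 1076 sites (87.1%) and in neither at 24 (1.94%).

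Sites in coding exons were the widest and the richest in CpG. Their median width was 320 bp, compared with 220 bp for sites in 3' UTRs and for sites downstream, and 78 of the 146 (53.4%) had at least 8 CpG in the central 150 bp. In 3' UTRs 44 of 392 (11.2%) and downstream 69 of 600 (11.5%) reached that number. Over all the sites it was 198 (16.02%), compared with 5.96% of the other distal peaks and 20.2% of those in exons. By median signal, leaving out the 13 sites in another exon (1.11 ± 0.14), the order was downstream (0.905 ± 0.068), coding exon (0.826 ± 0.041), 3' UTR (0.805 ± 0.029) and intron (0.755 ± 0.074), and neighbours in that order differed by less than the sum of their SDs.

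The libraries gave similar signals at the 3' end sites. Of the 1236 sites, 1222 (98.9%) lay within 2-fold of each other in the libraries, compared with 98.6% of the other distal peaks. Replicate 2 was the higher library at 803 sites (65.0%), with a median log2 ratio of replicate 1 to replicate 2 of -0.13. Among sites with a CTCF match it was higher at 161 of 192 (83.9%), and among sites without one at 642 of 1044 (61.5%). The other distal peaks showed the same split, with replicate 2 higher at 86.2% of those with a CTCF match and at 63.3% of all of them.

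The sites with the most unequal libraries were weak in at least 1 library. The 3 most in favour of replicate 1 were downstream of Agrn, a synapse-organising proteoglycan gene (0.179 and 0.058), in the 3' UTR of Otp, a homeobox gene of the hypothalamus (0.649 and 0.283), and downstream of Mapk9, a stress kinase gene (0.237 and 0.115). The 3 most in favour of replicate 2 were at Kctd1 (0.140 and 0.471), Clec12a, a myeloid lectin receptor gene (0.300 and 0.716), and Mettl6, an RNA methyltransferase gene (0.533 and 1.21). The mean signal of these 6 was at most 0.869.

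**Figure D2:**
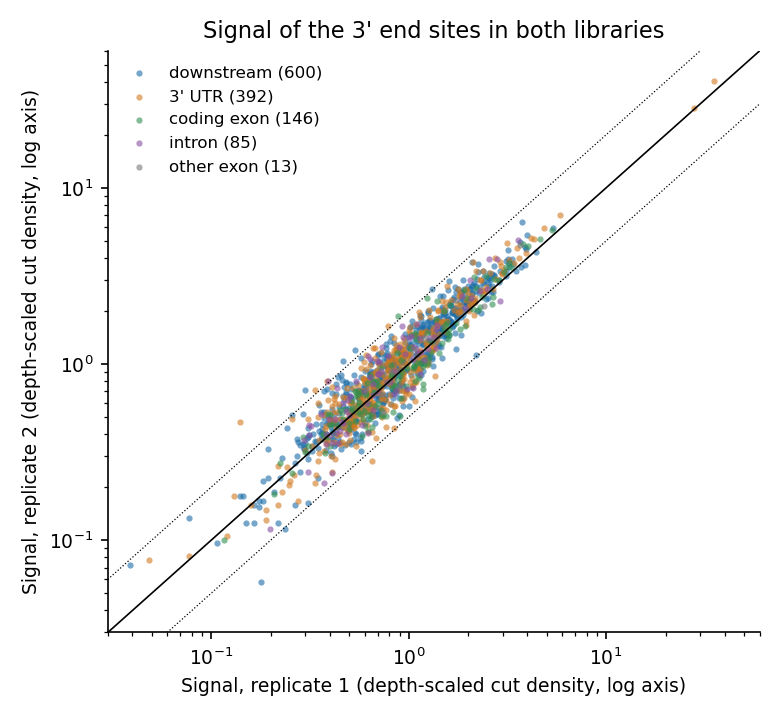
Signal of the 1236 sites in replicate 1 and replicate 2, on log axes, coloured by place, with the number of sites in brackets; the solid line marks equal signal and the dotted lines a 2-fold difference. The sites follow the solid line, 1222 lie between the dotted lines, and 2 sites stand far above the others.

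A pair of sites stood apart at the top. The strongest was in the 3' UTR of Lars2, a leucyl-tRNA synthetase gene of mitochondria (chromosome 9, 123461881 to 123462120), with 35.0 and 40.1. Of its 31-base words, 60.5% were found again at other places of the genome, so reads could have had more than 1 place. Such words made up 50% or more of 10 of the 1236 sites (0.809%), and of 50 of 4603 (1.09%) when every 10th other distal peak was taken. The next strongest site was in the 3' UTR of Cers5, a ceramide synthase gene (chromosome 15, 99735661 to 99736060), with 27.8 and 28.4 and no such words. Without them, the highest site fell to 5.86 and 7.02.

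Among the other strong sites, CTCF matches were frequent. Of the 20 strongest sites of genes with established names, 9 held a CTCF match (Wilson interval 25.8 to 65.8%). In the highest signal quartile a match was found in 28.2% of the 3' end sites and 24.98% of the other distal peaks. The interval includes the first share and starts just above the second. Whether strong 3' end sites differ in this from equally strong peaks elsewhere was not tested. By place, 8 of the 20 were in 3' UTRs, 7 downstream, 3 in coding exons, 1 in an intron and 1 in another exon. Dand5, which encodes a secreted antagonist of Nodal signals, had 5.86 and 7.02 in its 3' UTR (chromosome 8, 84815641 to 84815840). Gdf15, a stress-induced cytokine gene, had 4.65 and 5.12 in its last coding part (chromosome 8, 70629801 to 70630040). Skap2, an adaptor gene of Src kinase signalling, had 4.18 and 5.22 in its 3' UTR.

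Sites beyond the gene included those of metabolic and transport genes. The site beyond Ckb, the brain creatine kinase gene, had 3.96 and 5.41. That 887 bp beyond Copz2, a gene of the vesicle coat COPI, had 3.73 and 6.40, the largest ratio between libraries among the 20. Srxn1, which encodes the redox enzyme sulfiredoxin, had 3.88 and 4.62 at 734 bp beyond the end. Ripor1, a regulator gene of small GTPase signalling, had 3.95 and 4.47. These 4 sites held CTCF matches, and replicate 2 was higher in each.

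The remaining sites with CTCF matches among the 10 strongest were at Thbs4, Ror2 and Cavin1. Thbs4, a gene of the extracellular matrix protein thrombospondin 4, had 3.59 and 5.03, Ror2, a Wnt receptor gene, had 3.55 and 4.53, and Cavin1, a gene of the membrane pits called caveolae, had 3.14 and 4.86. Replicate 2 was higher at 10 of these 10 sites.

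Strong sites without a CTCF match differed in CpG content among themselves. So did those with a match, from 2 CpG in the central 150 bp at Ckb to 18 at Gdf15. The site 449 bp beyond Fam120a, an RNA-binding protein gene, had 5.39 and 5.95, with 17 CpG in the central 150 bp, and the site 651 bp beyond Ivd, an enzyme gene of leucine breakdown, had 3.66 and 4.95, with 16. The coding exon of Zfp771, a zinc finger gene, had 3.78 and 4.802 in a site of 540 bp, with 29 CpG in its central 150 bp. Rtn2, a reticulon gene of the endoplasmic reticulum, had 4.82 and 5.94, with 7 CpG there. Ddn, which encodes the postsynaptic protein dendrin, had 4.34 and 5.12, with 11. Prss22, a serine protease gene, had 3.94 and 4.28, with 7.

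A pair of genes of myeloid cells was also in this group. Spi1, which encodes PU.1, the main transcription factor of macrophages and microglia, had 4.04 and 4.70 in its last coding exon (chromosome 2, 91115161 to 91115320). The site held 12 CpG in its central 150 bp, and Spi1 had no shared peak within 500 bp of any of its annotated TSS. Slc11a1, a metal transporter gene of macrophages, had 4.43 and 4.32 at 848 bp beyond the end, and it was the only one of the 20 with the higher signal in replicate 1. In bulk tissue a site open in few cells and a site weakly open in many cannot be told apart.

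**Figure D3:**
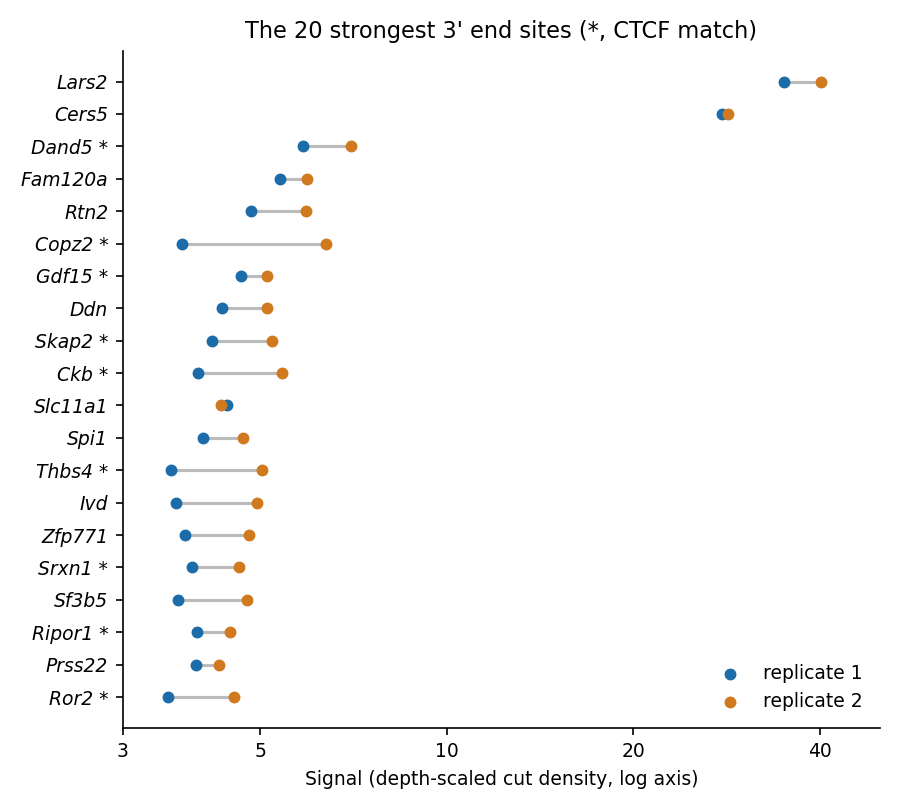
Signal in replicate 1 and replicate 2 at the 20 strongest 3' end sites of genes with established names, on a log axis, with a line joining the libraries and an asterisk at genes whose site holds a CTCF match. Lars2 and Cers5 stand above 27 in both libraries, the other 18 lie between 3.55 and 7.02, and replicate 2 is the higher point at 19 of the 20.

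A few strong sites lay at start sites of an annotation that the rule did not use. RefSeq, a second annotation, placed an mRNA end within 1 kb of 1107 of the 1236 sites (89.6%). It also placed a transcript start within 1 kb of 35 of them (2.83%), of which 13 were starts of long noncoding RNAs, 11 of mRNAs and 8 of tRNA genes. The site at Sf3b5, a splicing factor gene, had 3.69 and 4.75 and was centred 10 bp from a RefSeq start of that same gene. Of the 198 sites with at least 8 CpG, 14 had a RefSeq start within 1 kb.

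The tRNA genes stood in pairs beyond 3 genes on chromosome 11. Within 100 bp of a tRNA start were 6 of the 1236 sites (0.485%, 0.223 to 1.06%) and 130 of the 46028 other distal peaks (0.282%, 0.238 to 0.335%), with overlapping intervals. Beyond Ctc1, a telomere maintenance gene, the signals were 3.17 and 4.44 at the nearer site and 1.67 and 1.96 at the farther. Beyond Per1, a circadian clock gene, they were 1.40 and 1.45, and 2.72 and 3.62. Beyond Mrpl58, a mitochondrial ribosome gene, they were 1.62 and 2.19, and 3.69 and 3.54. From 11.4% to 24.1% of the 31-base words of these 6 sites occurred elsewhere in the genome. The B box, the element that RNA polymerase III factors read inside tRNA genes, searched on both strands, was in the central 150 bp of 3 of the 6 sites, of 0.243% of the 3' end sites and of 0.161% of all distal shared peaks.

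CTCF matches were more frequent at 3' end sites than over all distal shared peaks. The consensus, searched on both strands of the central 150 bp, matched 192 of the 1236 sites (15.5%, 13.6 to 17.7%), against 10.4% of all distal shared peaks. With the window around the 3' end widened to 2 kb it matched 16.3% of 2376 sites. The higher share was thus not confined to the 1 kb of the rule. By place it was 16.3% downstream, 15.8% in 3' UTRs, 18.8% in introns and 8.90% in coding exons. Among the other distal peaks it was 9.74% in exons, 9.22% in introns and 11.5% in intergenic sequence.

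The share with a CTCF match rose with signal in both sets. From the lowest to the highest signal quartile it was 3.85, 3.67, 13.4 and 28.2% of the 3' end sites, and 2.43, 4.66, 9.39 and 24.98% of the other distal peaks. In the third quartile the intervals of the sets did not overlap (10.2 to 17.4% and 8.87 to 9.94%), and in the highest they did (24.2 to 32.5% and 24.2 to 25.8%). Sites with a match had a median signal of 1.43 ± 0.16 and sites without 0.781 ± 0.016, at median widths of 200 and 240 bp. Within signal quartiles the gap between the sets was thus smaller than over all sites.

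AP-1 matches were less frequent. The motif of AP-1, the Fos and Jun dimer, was found in 68 of the sites (5.50%, 4.36 to 6.92%), against 7.52% of all distal shared peaks. The motif of the NEUROD factors of excitatory neurons matched 8.17% (6.77 to 9.83%) and 9.37%, and the related E box CAGCTGC of the MYOD type 8.90% and 8.48%. The NEUROD motif can lie inside a CTCF match, and such matches were not left out. The GC-rich SP/KLF motif (GGGGCGGGG) matched 1.46% and 0.855%, and the SOX motif (ACAATGG) 0.890% and 1.63%. The GATA motif matched 5.66% (4.51 to 7.09%) and 7.51%. For NEUROD and MYOD the interval of the sites included the value over all distal shared peaks, and for CTCF, AP-1, SP/KLF, SOX and GATA it did not. Among the other distal peaks in exons AP-1 matched 5.77%, SOX 1.42% and GATA 5.35%, all within the intervals of the sites. In introns (7.91, 1.43 and 7.32%) only the SOX value was within, and in intergenic sequence (7.41, 1.91 and 8.06%) none was. SP/KLF matched 0.627, 0.815 and 0.888% in these kinds of sequence, below the interval of the sites (0.923 to 2.29%).

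**Figure D4:**
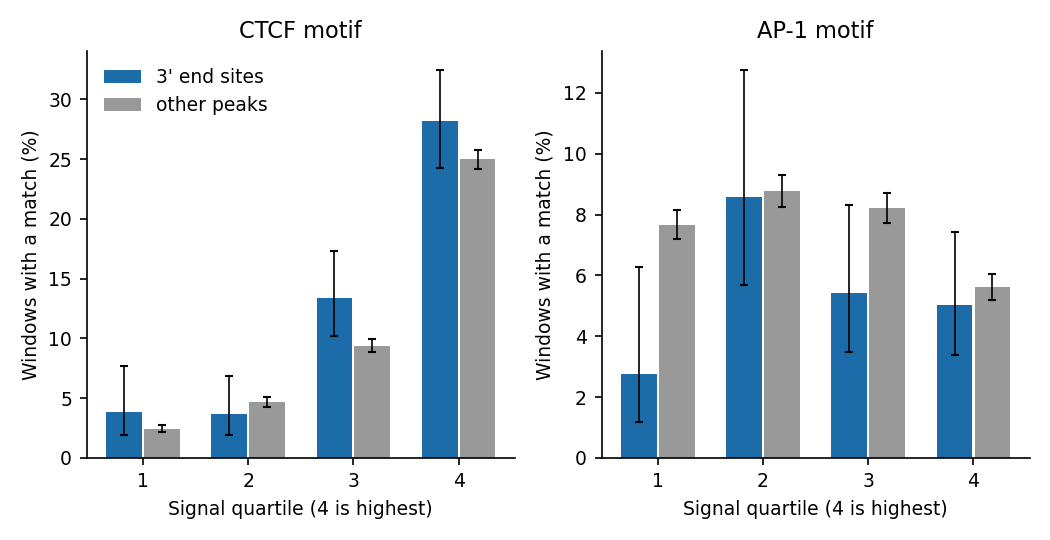
Percent of 150 bp windows with a match to the CTCF motif (left) and the AP-1 motif (right), by signal quartile over all distal shared peaks, for the 3' end sites (blue) and the other distal peaks (grey); bars start at 0 and lines are 95% Wilson intervals for counting error. CTCF matches rise from 3.85% to 28.2% of the 3' end sites between the lowest and the highest quartile, whereas AP-1 matches stay between 2.75% and 8.57%.

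Footprints covered nearly all CTCF matches. Of 196 CTCF matches at 3' end sites, a footprint lay over 93.9% in replicate 1 and 97.4% in replicate 2 (95.7% ± 2.53), compared with 95.01% ± 1.37 of the matches in the other distal peaks. The share was 50% ± 7.41 for the 105 NEUROD matches (44.3% ± 2.14 elsewhere) and 30.99% in each library for the 71 AP-1 matches (27.2% ± 2.85 elsewhere). Some NEUROD matches lay inside CTCF matches, as at Skap2 and Ror2, and were not counted apart, so the NEUROD share includes footprints over CTCF matches. It was 35.4% ± 2.58 for the 137 MYOD matches (28.98% ± 2.19 elsewhere) and 17.1% ± 0.97 for the 73 GATA matches (11.6% ± 1.34 elsewhere). The difference from the other distal peaks was smaller than the sum of the SDs for CTCF and NEUROD and larger for MYOD and GATA. For AP-1 the 30.99% lay above the 25.1 and 29.2% of the libraries there. These SDs compare the libraries at the same matches and leave out counting error. The counts were small, with footprints over 51 and 46 MYOD, 12 and 13 GATA and 22 and 22 AP-1 matches. Whether these shares differ between the sets was not tested.

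Beyond the 3' end, more CTCF matches read on the gene's strand than against it. There, 64 of 99 matches (64.6%, 54.8 to 73.4%) read on the gene's strand and 35 on the other. Inside the gene it was 47 of 97 (48.5%, 38.8 to 58.3%). These intervals overlap between 54.8 and 58.3%. Between 1 and 2 kb beyond the end the share was 49.1% of 114 matches, and between 2 and 5 kb it was 63.4% of 246 (57.2 to 69.2%). Between 5 and 10 kb it was 55.8% of 319 (50.3 to 61.1%), so the share did not change steadily with distance. Between 5 and 2 kb inside the gene it was 41.7% of 204 (35.1 to 48.5%).

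**Figure D5:**
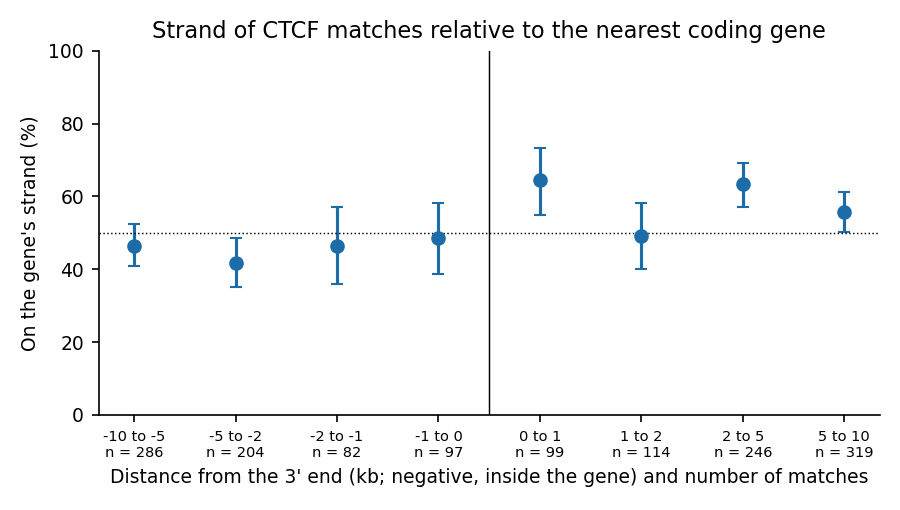
Percent of CTCF matches that read on the strand of the nearest protein-coding gene, by distance from its 3' end, at shared peaks more than 2 kb from every TSS; points are percentages with 95% Wilson intervals for counting error, the number of matches stands under each, and the dotted line marks 50%. Beyond the end the intervals at 0 to 1 kb, 2 to 5 kb and 5 to 10 kb lie above the dotted line, the last by little, and the interval at 1 to 2 kb spans it.

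Some sites held many footprints, counted per site and not per length. The coding exon site of Otud7a, a deubiquitinase gene, was 1542 bp wide and held 20 and 18 footprints at a signal of 1.18 and 0.975. C1qtnf4, a gene related to complement C1q, had 13 and 13 in 1019 bp, and the 3' UTR site of Tspan33, a tetraspanin gene, 16 and 10 in 1640 bp. Vgf, a neuropeptide precursor gene that neuronal activity induces, had 10 and 11 in 480 bp at a signal of 2.47 and 3.16. Prr7, a gene of a postsynaptic protein, had 11 and 10 in 600 bp, and Grik5, a kainate receptor subunit gene, 10 and 11 in 860 bp. Vgf, Prr7 and Grik5 were tied in their mean number with 1 further site, and they reached it in narrower sites than the first 3.

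At some genes several sites stood in a row. Of the 17800 protein-coding genes with a usable 3' end, meaning one with sequence within 1 kb that is more than 2 kb from every TSS, 1187 had at least 1 site, which is 6.67%. A single site was found at 1035 of them, 2 sites at 134, 3 at 16 and 4 at 2. Cdk5r2, which encodes a neuronal activator of the kinase Cdk5, had 4, and the signal was 2.37 and 3.39 at the outermost, 748 bp beyond the end, and at most 0.935 at the other 3. The 4 sites at Usp35, a deubiquitinase gene that converges with Gab2, were weak, from 0.106 to 0.189 in either library, and 3 of them also count for Gab2. Genes with 4 sites thus included strong and weak ones.

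Most sites were at genes with an open promoter, which most protein-coding genes also had (13640 of 20807, 65.6%). Of the 1236 sites, 933 (75.5%) were at a gene with a shared peak within 500 bp of any of its annotated TSS. Among genes with a usable 3' end, 885 of 11781 with such a promoter peak (7.51%) and 302 of 6019 without (5.02%) had a site. In gene lists of cell types and functions, 25 listed genes had 31 sites. The tissue itself was checked by promoter peaks at marker genes: these were present at 6 of 6 excitatory neuron, 3 of 3 telencephalic and 4 of 4 inhibitory neuron markers, at 3 of 4 astrocyte, 2 of 5 oligodendrocyte, 1 of 4 microglial and 1 of 3 endothelial markers, and at 0 of 6 controls from outside the cortex. Among the cortical markers without one were Aqp4, Mog, Sox10, Cx3cr1, Csf1r, P2ry12, Cldn5 and Pecam1.

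Several genes of excitatory neurons and of the glutamatergic synapse had sites. Of 18 excitatory neuron genes with a usable end, 5 had a site, and of 14 glutamatergic synapse genes 4 had one, compared with 6.67% of all such genes. Rtn4r, the Nogo receptor gene, had 2 sites, with 1.23 and 1.31 in the 3' UTR and 1.30 and 1.31 at 772 bp beyond the end. Neurod6, a bHLH factor gene of cortical projection neurons, had 1.47 and 1.09 at 702 bp beyond the end. Tbr1, a T-box factor gene of deep-layer neurons, had 0.949 and 1.13 beyond the end in a site of 980 bp and 0.615 and 0.576 in its 3' UTR. Fezf2, a selector gene of corticospinal neurons, had 0.756 and 0.634 beyond the end and 0.431 and 0.408 in an intron.

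For some of these genes the site also belonged to a neighbour. The site 378 bp beyond Slc17a7, the vesicular glutamate transporter gene, had 1.15 and 1.01 and lay in a coding exon of Gfy, a gene of olfactory signalling. At the synapse, the site near the end of Shank1, a postsynaptic scaffold gene, had 5.30 and 5.73 and lay in a coding exon of the overlapping gene 1700008O03Rik. Grm2, a metabotropic glutamate receptor gene, had 1.80 and 2.45 in its 3' UTR with a CTCF match. Cacng3, a gene of an AMPA receptor regulator, had 0.615 and 0.783, and Gria1, an AMPA receptor subunit gene, 0.189 and 0.149.

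Immediate early genes, the first to respond to neuronal activity, had sites at 2 of 20 usable ends. Egr4, a zinc finger factor gene, had 1.47 and 2.06 at 461 bp beyond the end. Arc, which encodes a synaptic capsid-like protein, had 1.01 and 0.792 in a site of 1241 bp in its 3' UTR and 0.862 and 0.682 in a site of 740 bp beyond the end. The sites of Arc were wide and the site of Egr4 was 200 bp. Inhibitory neuron genes had sites at 0 of 18 usable ends, beside 6.67% over all genes.

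In the vesicle, channel, glial and endothelial lists 1 or 2 genes each had a site, at shares of 5.26 to 14.3% of usable ends against 6.67% of all genes. Of 18 synaptic vesicle genes 2 had a site: Vamp2, a gene of vesicle fusion, with 2.09 and 2.76 at 176 bp beyond the end, and Syn2, a synapsin gene, with 2 sites of at most 0.228. Of 19 ion channel genes 1 had a site. Among 14 astrocyte genes Clu, which encodes clusterin, had 2.19 and 2.77 at 773 bp beyond the end, and Slc1a3, a glutamate transporter gene, had 0.877 and 0.970 with a CTCF match. Olig2, a lineage factor gene of oligodendrocytes (1 of 13), had 0.339 and 0.456, Spi1 was the site of the microglial list (1 of 15), and Kdr, a VEGF receptor gene of endothelium (1 of 13), had 0.426 and 0.288.

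Genes of the hepatocyte, muscle and epithelial lists also had sites. Of 18 hepatocyte genes 3 had one, among them Pck1, an enzyme gene of glucose synthesis, with 0.528 and 0.864, and Ttr, the transthyretin gene, with 0.368 and 0.403. Of 15 muscle genes 2 had one: Acta1, the skeletal actin gene, with 2.35 and 2.41 in a coding exon, and Myod1, the muscle regulator gene, with 1.25 and 1.56 at 81 bp beyond the end and a CTCF match. None of the 5 hepatocyte and muscle genes with a site had a promoter peak at any of its annotated TSS. Of 16 epithelial genes 1 had a site, Dsc3, a desmosome gene, and this gene did have a promoter peak. A site at a gene's 3' end was therefore found also where the promoter had no peak, and the lists of 13 to 20 usable ends are too short for their shares to be set in order.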

How the data were processed

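DNase-seq calls of 2 libraries of left cerebral cortex were used. The authors aligned reads to mm10, per the labels; which aligner, peak caller and footprint caller they ran is not given in the sources used here. Per the file headers and labels, each library had its own peak calls, as a larger and a smaller list, and the deposited signal of a peak is a cut density the authors scaled to read depth. Its step corresponds to 206 and 208 M cuts, so depth was nearly equal. The deposited footprint tables give an FDR (q-value) of 0.01 throughout, and the deposited cut-rate tables give q-values below 0.05. Reads of the CAST/EiJ copy may align less often to the reference; alleles were not analysed here.

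Peaks of the larger lists were merged, a merged peak took the highest signal of its members in each library, and places came from GENCODE M21 on GRCm38.p6, the build all 19 chromosomes fit. RefSeq starts were a second annotation. Eligible sequence excludes gaps in the assembly. In the position list, the 3' UTR follows coding exons in priority. The 18 motifs were searched in the central 150 bp. Shares have 95% Wilson intervals (SciPy 1.17.1, Python 3.11.15), which cover counting error only; sites are not independent replicates. Code was tested on simulated peaks. With 1 group of 2 libraries, no test was run. The rule for named genes took the 20 strongest sites (without Gm and Rik names), the 3 strongest at each listed gene set, the 10 strongest with a CTCF match, the 5 with most footprints, the 3 with the largest and smallest library ratio, and the 5 genes with most sites, of which 2 are named because 16 were tied behind them. Sites at tRNA genes, the B box and the poly(A) signal were examined after their values were seen. The sites, the rule and the 13 gene lists were chosen with earlier results of these data known. Alternatives covered the peak list, both distance limits, the overlap, low signal, each library alone, the sequence searched and the motif spelling. A few listed genes and 1 sequence are not reported here.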

Additional observations from a re-analysis of the deposited data

How the results depend on the processing

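With no group comparison, each alternative gives a value and not a test, and a value is said to have moved when it left the spread of the libraries or, for shares, the 95% counting interval, or, for counts, 1.5 times. With the smaller peak list there were 730 sites, 41.1 peaks per Mb near 3' ends, a median signal of 1.26, 51.8% downstream, 22.1% with a CTCF match and 96.1% with a footprint. With the upper 50% of peaks by signal these were 669 sites, 36.7 per Mb, 1.37, 24.4% with a CTCF match and 98.9% with a footprint. A window of 500 bp gave 597 sites, 36.2% in the 3' UTR and 93.6% with a footprint, and 2 kb gave 2376 sites and 26.3% in the 3' UTR. At 5 kb from every TSS there were 688 sites, a median of 0.8005, 35.0% in the 3' UTR and 6.98% with an AP-1 match. The shorter spelling of the CTCF motif matched 20.4%, and the whole merged peak in place of 150 bp gave 9.47% for AP-1. With either library alone, which also admits peaks found once, there were 1853 to 2186 sites, with a median of 0.552 to 0.639, 77.9 to 80.1% with a footprint, 9.38 to 12.4% with a CTCF match and 4.35 to 5.18% with an AP-1 match. For the smaller list, the upper 50% and single libraries, the set of peaks differs by construction; for the others the cause was not tested. Leaving out the sites within 1 kb of a RefSeq start, or those of mostly repeated words, both chosen after seeing the data, moved none of the 7 values computed. The density was not recomputed for the stricter overlap. No paired analysis was possible because there is 1 group and so no groups to pair; contrasts of regions within a library are given as values, without a test. At 206 and 208 M cuts, replicate 1 alone held 918 merged peaks at 3' ends and replicate 2 alone 565; the part of depth in this was not tested.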
